A study of Homo sapiens with 9 samples.

Results

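The genes described here are MYCN, MYC, MAX, DDX1 and ODC1 in LAN-5 cells, an established human neuroblastoma line. The rule that picks their probe sets is the gene symbol alone. Of the 5 symbols, 4 were carried by a probe set in the probe-to-gene table, 1 probe set each for MYCN, MYC, DDX1 and ODC1. No probe set carried the symbol MAX, so MAX was not analysed here. The 4 genes stand among 7713 genes named by a single symbol, and all 4 were among the 5830 of 8746 probe sets bright enough to be tested.

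The study gave the cells the protein S100B, a calcium-binding protein that astrocytes release, and measured RNA on 9 Affymetrix arrays. In 3 arrays the cells were untreated, in 3 they had S100B at 0.5 nM and in 3 at 5 µM, and the series text calls the 3 biological replicates. All groups are the same commercial line grown in DMEM, so they represent 1 line, and the length of exposure is not given in the sources used here. Values are log2 expression as deposited, 1 number per probe set and array, and a difference of 1 is a doubling.

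MYC and MYCN encode basic helix-loop-helix transcription factors of the same family that bind DNA as a pair with MAX, typically at the E-box CACGTG, and promote growth, ribosome production and cell division. MYCN, on the short arm of chromosome 2, is the gene whose amplification marks high-risk neuroblastoma, and LAN-5 is known as a line with MYCN amplification. DDX1, which encodes an RNA helicase, lies beside MYCN and is sometimes amplified with it. ODC1 encodes ornithine decarboxylase, the rate-limiting enzyme of polyamine synthesis and a classical target of MYC and MYCN, and it lies further along the same chromosome arm. DNA copy number was not measured, so every value below is RNA. Over the 9 arrays the mean was 7.86 log2 for MYCN, 9.51 for MYC, 10.28 for DDX1 and 11.74 for ODC1. Values of different probe sets were not calibrated against each other. These means therefore do not rank the genes by amount of RNA and do not show whether MYCN is amplified.

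The labelled cell type was checked against its markers. Of 16 noradrenergic neuroblastoma markers 14 had a probe set and 12 lay above the brightness filter, among them GATA3, ISL1, PHOX2A, DBH and CHGA, while TH and INSM1 lay below it. The mean of these 14 markers was 9.47 to 9.67 log2 on the untreated arrays, 9.61 to 9.67 at 0.5 nM and 9.57 to 9.73 at 5 µM, ranges that overlap. Of 10 mesenchymal or Schwann-like markers with a probe set 5 lay above the filter. They ran from COL1A2 at 6.38 to VIM at 10.84, with TWIST1 at 10.32. The mean of the 10 was 6.88 to 6.95 log2 over the 9 arrays. The mean of 5 leukocyte markers was 5.93 to 6.08, of 5 epithelial markers 5.60 to 5.70 and of 4 astrocyte markers 5.68 to 5.77. Of these, 3 leukocyte, 2 epithelial and 2 astrocyte markers lay above the filter. Untreated replicate 1 stood lowest in 9 hybridisation spike-in probe sets, at 9.01 against 9.48 to 9.86 on the others. Replicate 3 of both treated groups had the lowest median correlation with the other arrays, at 0.995 each.

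Neither dose moved any of the 4 genes past the threshold, an adjusted p under 0.05 in limma's test over all 5830 probe sets. At 5 µM MYC and ODC1 lay below the untreated arrays without overlap, and MYCN and DDX1 overlapped with them. Of all probe sets 9.47% lay below without overlap, and 12.3% were without overlap in either direction. At 5 µM against untreated 0 of 4 passed, beside 0.292% of all probe sets, and 2 of 4 had an unadjusted p under 0.05, beside 6.84% of all. The unmoderated form of the test also passed 0 of the 4. In bulk RNA a change in the share of cells that express a gene and a change per cell cannot be told apart.

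**Figure D1:**
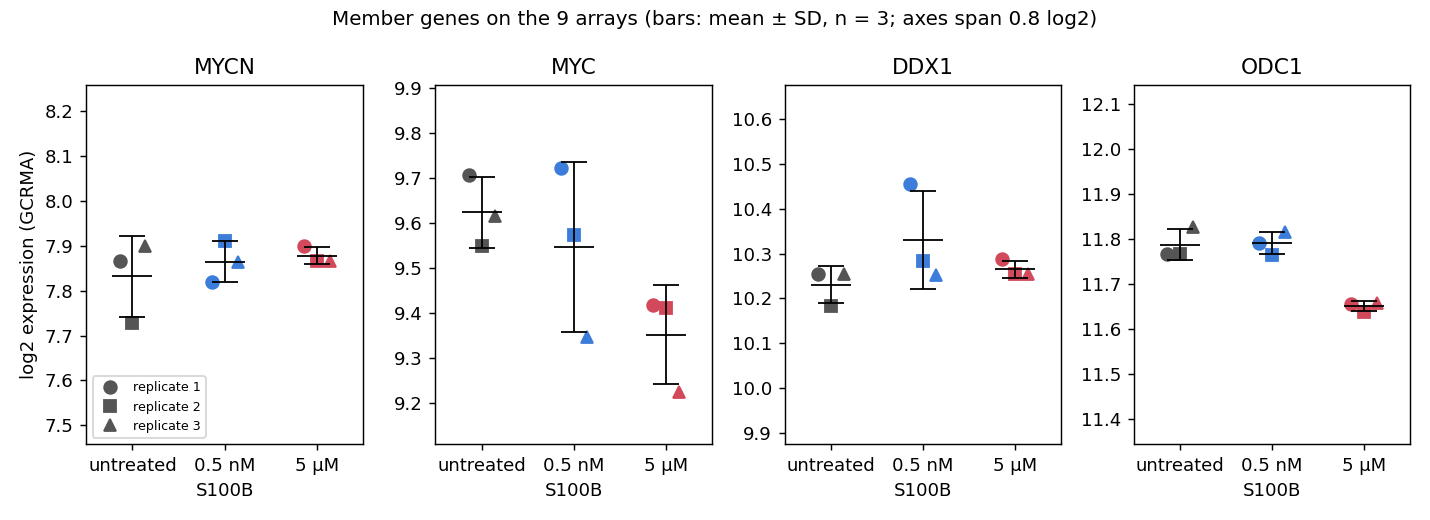
Log2 expression (vertical axis, GCRMA values) of MYCN, MYC, DDX1 and ODC1 on each array, by S100B group (horizontal axis), with bars for the mean and SD of 3 arrays. The 5 µM arrays of ODC1 sit at 11.64 to 11.66, below the other 6 arrays, and those of MYC at 9.22 to 9.42, while MYCN and DDX1 overlap between groups.

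MYCN was nearly level across the study. The untreated arrays gave 7.87, 7.73 and 7.90 log2, the 0.5 nM arrays 7.82, 7.91 and 7.86, and the 5 µM arrays 7.90, 7.87 and 7.87. Untreated replicate 2 was the lowest of the 9, and the groups overlapped in all comparisons. The 9 values spanned 0.18 log2, a narrower span than in all but 15.1% of the tested probe sets. At 5 µM MYCN differed from untreated by 0.05 ± 0.06 log2 (SE), with limma's adjusted p = 0.92 and a 95% interval of -0.08 to 0.17. As a share of the untreated level this is 103.2%, with an interval of 94.4% to 112.8%. Here and below the ± of a difference is limma's moderated SE. It pools the spread within groups over all 9 arrays and draws it towards a value common to all probe sets. At 0.5 nM the difference was 0.03 ± 0.06 (adjusted p = 0.9999), with an interval of -0.10 to 0.16.

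The start of MYCN is shown because this promoter is a textbook target of the E2F cell cycle factors, and the capitals mark a match to the E2F-type letters TTTGGCGC. The sequence covers the 250 bases before the RefSeq start, chr2:15940300-15940549 on the plus strand of GRCh38.p14.
MYCN upstream: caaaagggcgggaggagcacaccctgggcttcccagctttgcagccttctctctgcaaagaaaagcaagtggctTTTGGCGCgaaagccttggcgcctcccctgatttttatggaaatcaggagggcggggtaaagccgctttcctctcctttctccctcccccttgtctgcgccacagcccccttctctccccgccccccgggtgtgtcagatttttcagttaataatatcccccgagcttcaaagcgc
On either strand, 0.652% of 35116 RefSeq promoter windows of 300 bases hold TTTGGCGC, 7.26% hold CACGTG and 11.4% the variant E-box CACGCG. The MYCN window holds neither of the 2 E-box forms.

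MYCNOS, a gene transcribed from the strand opposite to MYCN, had a probe set of its own, just above the filter at 5.95. It was singled out after its values were seen. Its arrays ran from 5.93 to 6.09 log2 in all groups. The difference at 5 µM was 0.01 ± 0.06 (limma's adjusted p = 0.983) and at 0.5 nM -0.0076 ± 0.06. The names of the MYCN and MYC probe sets end in a suffix that Affymetrix gives to sets whose probes may hit several transcripts.

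MYC had the widest span among the 4 genes. The untreated arrays gave 9.71, 9.55 and 9.61 log2, the 0.5 nM arrays 9.72, 9.57 and 9.35, and the 5 µM arrays 9.42, 9.41 and 9.22. All 5 µM arrays lay below all untreated arrays, and the 0.5 nM arrays spread over both ranges. The mean was 9.62 ± 0.08 (SD, n = 3) untreated, 9.55 ± 0.19 at 0.5 nM and 9.35 ± 0.11 at 5 µM. The span of 0.50 log2 was wider than in 90.3% of tested probe sets.

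At 5 µM MYC differed from untreated by -0.27 ± 0.09 log2 (SE), with a 95% interval of -0.48 to -0.06, or 82.8% of the untreated level. The unadjusted p was 0.0153 and limma's adjusted p = 0.607. An exact two-sided permutation test of 3 arrays against 3 gave p = 0.1, the smallest it can give. Non-overlapping arrays at 5 µM were seen in 12.3% of all probe sets, and in 9.47% in the lower direction. At 0.5 nM the difference was -0.08 ± 0.09 (adjusted p = 0.9999), with an interval of -0.29 to 0.13. Between the doses it was -0.20 ± 0.09 (adjusted p = 0.994), with an interval of -0.40 to 0.01, and it ran from -0.30 without 0.5 nM replicate 3 to -0.11 without 0.5 nM replicate 1.

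Replicate 3 was the lowest array for MYC at both doses. Without 0.5 nM replicate 3 the difference at 0.5 nM was 0.02, against -0.08 with it. Without 5 µM replicate 3 the difference at 5 µM was -0.21 and without untreated replicate 1 it was -0.23, both with an unadjusted p above 0.05 (0.0631 and 0.0593).

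DDX1 overlapped between the groups in every comparison. The untreated arrays gave 10.25, 10.18 and 10.25 log2, the 0.5 nM arrays 10.46, 10.28 and 10.25, and the 5 µM arrays 10.29, 10.25 and 10.25. Replicate 1 at 0.5 nM stood above the other 8 arrays, which lay between 10.18 and 10.29. The difference from untreated was 0.10 ± 0.06 (SE) at 0.5 nM, with a 95% interval of -0.04 to 0.24 (limma's adjusted p = 0.9999). Without 0.5 nM replicate 1 it was 0.04. At 5 µM it was 0.03 ± 0.06, with an interval of -0.10 to 0.17 (adjusted p = 0.948).

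RefSeq places no other protein-coding gene between DDX1 and MYCN. The bases before the start of DDX1 are shown as those of MYCN's neighbour, chr2:15591618-15591867 on the plus strand of GRCh38.p14, with capitals on the 1 match to CACGCG, which reads CGCGTG on this strand.
DDX1 upstream: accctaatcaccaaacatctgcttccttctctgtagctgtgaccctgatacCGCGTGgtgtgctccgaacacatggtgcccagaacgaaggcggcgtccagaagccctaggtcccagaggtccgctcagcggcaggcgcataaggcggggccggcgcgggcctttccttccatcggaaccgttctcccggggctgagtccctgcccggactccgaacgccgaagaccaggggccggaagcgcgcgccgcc
The DDX1 window holds neither CACGTG nor TTTGGCGC.

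DDX1 protein is a subunit of the tRNA ligase complex, which joins the ends of tRNA after its intron is cut out, and has been linked to messenger RNA 3' end processing. Of 8 genes in the list of the complex and DDX1 partners, 4 were tested and 0 passed limma's test at either dose, and the unadjusted p of each was above 0.05. RTCB, the ligase itself, was at 0.01 ± 0.10 log2 at 5 µM against untreated, a sign that turned under 2 of the alternatives. The cleavage factor CSTF2 was at -0.11 ± 0.07 and the RNA-binding protein HNRNPK at -0.11 ± 0.07, both with 5 µM arrays all below the untreated ones, beside 9.47% of all probe sets.

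ODC1 had the tightest replicates of the 4 genes and the clearest separation of the arrays. The untreated arrays gave 11.77, 11.77 and 11.83 log2, the 0.5 nM arrays 11.79, 11.77 and 11.82, and the 5 µM arrays 11.66, 11.64 and 11.66. All 5 µM arrays lay below all 6 others, which was so for 2.69% of all probe sets. The SD was 0.03 untreated and 0.01 at 5 µM (n = 3 each). Untreated replicates 1 and 2 had the same deposited value, so the untreated SD rests partly on a tie.

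At 5 µM ODC1 differed from untreated by -0.14 ± 0.05 log2 (SE), with a 95% interval of -0.24 to -0.03, or 90.9% of the untreated level (84.5% to 97.9%). The residual SD of ODC1 was 0.026 log2, and the common value that limma draws it towards was 0.084. The SE given is therefore larger than the ODC1 arrays alone would give. The unadjusted p was 0.0159 and limma's adjusted p = 0.613. After quantile normalization between arrays the difference was -0.09 with an unadjusted p of 0.118, and without untreated replicate 3 it was -0.12 with an unadjusted p of 0.0598. Between the doses ODC1 differed by -0.14 ± 0.05 (unadjusted p = 0.0141, adjusted p = 0.924), or 90.7% of its level at 0.5 nM. At 0.5 nM it differed from untreated by 0.0033 ± 0.05, with an interval of -0.10 to 0.11. Of the 4 genes 0 passed limma's test between the doses, beside 0.257% of all probe sets, and ODC1 alone had an unadjusted p under 0.05, beside 4.65% of all. Its arrays at the 2 doses did not overlap, which was so in this direction for 4.63% of all probe sets and in either direction for 6.98%.

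At 0.5 nM against untreated 0 of the 4 genes passed limma's test or its unmoderated form, beside 0% of all probe sets. None of the 4 had an unadjusted p under 0.05 there, beside 3.29% of all, and none was without overlap, beside 6.98%. In limma's test for any difference among the 3 groups the adjusted p was 0.99 for MYCN, 0.984 for MYC, 0.984 for DDX1 and 0.941 for ODC1, and 0.24% of all probe sets passed.

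**Figure D2:**
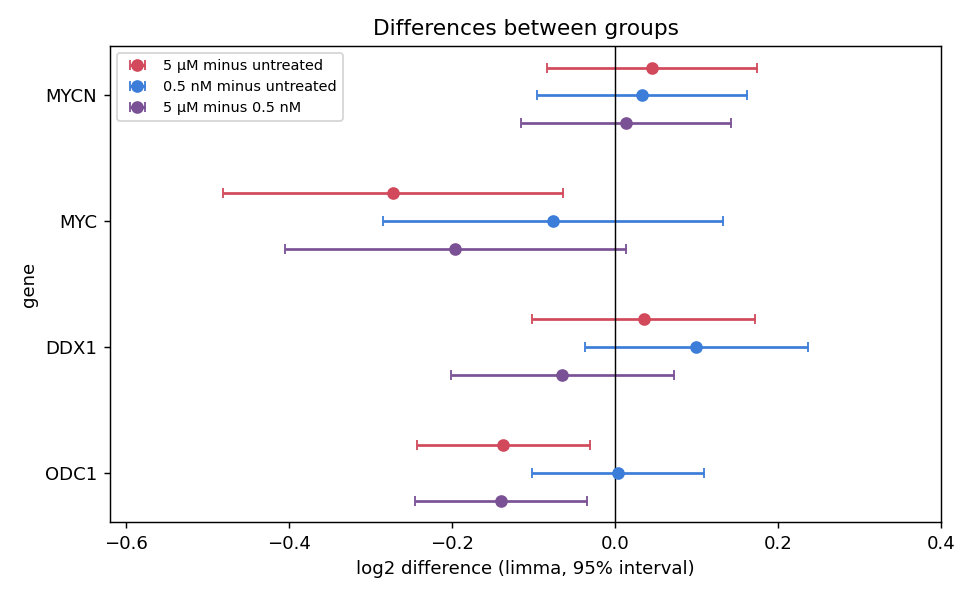
Log2 differences between groups (horizontal axis) with limma's 95% intervals for the 4 genes (vertical axis), for 5 µM minus untreated, 0.5 nM minus untreated and 5 µM minus 0.5 nM. The intervals at 5 µM against untreated lie below 0 for MYC (-0.48 to -0.06) and ODC1 (-0.24 to -0.03) before adjustment, and those of MYCN and DDX1 include 0.

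The ODC1 sequences are shown because MYC and MAX bind this gene at a pair of E-boxes near its start. RefSeq gives ODC1 2 starts that lie 315 bases apart. The window of the second start holds both matches to CACGTG, in capitals within 30 bases each, on the minus strand of GRCh38.p14 at chr2:10448024-10448053 and chr2:10447990-10448019. They begin 286 and 320 bases after the first start.
ODC1 E-box 1: ccgggccccgggCACGTGtgcggcgcgcct
ODC1 E-box 2: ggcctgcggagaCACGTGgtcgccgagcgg
The 250 bases before the first start, chr2:10448328-10448577 on the minus strand, hold no CACGTG, and their capitals mark CACGCG on both strands, where 2 matches overlap.
ODC1 upstream: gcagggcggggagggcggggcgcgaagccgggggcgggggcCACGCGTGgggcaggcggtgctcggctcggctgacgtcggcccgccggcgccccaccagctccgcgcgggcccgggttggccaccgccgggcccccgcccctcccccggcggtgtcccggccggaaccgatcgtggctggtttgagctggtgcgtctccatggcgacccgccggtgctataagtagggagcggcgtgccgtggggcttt

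Around ODC1, no gene of polyamine metabolism passed the test at 5 µM. Of 20 listed genes 13 had a probe set and 10 were tested, with 0 past limma's threshold. An unadjusted p under 0.05 was found for 1, ODC1, or 10% of those tested beside 6.84% of all probe sets. Of the 10, 9 had a difference below 0, as had 61.9% of all probe sets, and the median was -0.06 log2 beside -0.02 over all. AZIN1, the antizyme inhibitor that protects ornithine decarboxylase from degradation, was at -0.14 ± 0.07. The antizyme OAZ2 was at -0.10 ± 0.06 and spermidine synthase SRM at -0.08 ± 0.07. AZIN1 was at -0.10 without 5 µM replicate 1, and SRM at -0.14 without 5 µM replicate 3 and -0.04 without untreated replicate 3. At 0.5 nM the median of the 10 was -0.02 and 0 had an unadjusted p under 0.05. SRM differed by -0.18 ± 0.07 between the doses (unadjusted p = 0.0266, adjusted p = 0.994). Its arrays did not overlap, which was so in this direction for 4.63% of all probe sets.

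In the network of MYC, MAX and their relatives, 7 of 13 genes had a probe set and 6 were tested. None passed limma's test at 5 µM, where the unadjusted p was under 0.05 for 3, beside 6.84% of all probe sets. Besides MYC these were MLXIPL, the glucose-responsive partner of MLX, at -0.17 ± 0.06 log2 and MXI1 at 0.13 ± 0.06. MXI1 encodes a MAX partner that opposes MYC. MNT, another MAX partner that opposes MYC, was at 0.24 ± 0.12, with 5 µM replicate 3 at 7.19 and the other 8 arrays at 6.54 to 6.78, and without that array it was 0.06. The median of the 6 was -0.05, with 3 lower and 3 higher. At 0.5 nM MLXIPL was at -0.16 ± 0.06 (unadjusted p = 0.023, adjusted p = 0.9999), and both comparisons share the untreated arrays.

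Of genes for cofactors of MYC and regulators of its protein, 17 of 24 were tested and 0 passed limma's test at 5 µM. An unadjusted p under 0.05 was found for 1 gene, 5.88% of the 17 beside 6.84% of all probe sets. It was PLK1, the mitotic kinase reported to stabilise MYCN protein. PLK1 was at 8.66, 8.51 and 8.62 log2 untreated, 8.59, 8.65 and 8.55 at 0.5 nM, and 8.29, 8.30 and 8.32 at 5 µM. All 5 µM arrays lay below the other 6, which was so for 2.69% of all probe sets. The difference was -0.29 ± 0.06 from untreated (adjusted p = 0.0888) and -0.29 ± 0.06 from 0.5 nM (adjusted p = 0.0911). BIN1, which binds MYC and restrains it, was at -0.15 ± 0.08, the phosphatase subunit PPP2R5A at -0.09 ± 0.05 and the deubiquitinase USP7 at 0.14 ± 0.10 at 5 µM, the last at 0.04 without untreated replicate 2. The list median was -0.04.

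Of 67 genes known to rise with MYC 44 were tested at 5 µM, and their median was -0.02 log2, as over all probe sets. Limma's test passed 0 of the 44 against untreated, with 4 lower and 1 higher at an unadjusted p under 0.05, together 11.4% of the list beside 6.84% of all probe sets. The 1 higher was TFRC, the transferrin receptor, at 0.47 ± 0.08 (adjusted p = 0.0563). TFRC gave 10.54, 10.54 and 10.55 untreated, 10.66, 10.42 and 10.50 at 0.5 nM, and 10.85, 11.03 and 11.16 at 5 µM. Its 5 µM arrays did not overlap with the rest. Against the untreated arrays alone this was so in either direction for 12.3% of all probe sets. Between the doses TFRC rose by 0.49 ± 0.08 (adjusted p = 0.0483), the only one of the 44 to pass. It was itself the 1 probe set of all 5830 to pass in that direction (0.0172%). TFRC lost the threshold in 14 of 18 alternative fits, among them those without any 1 array other than 5 µM replicate 1. Between the doses 4 of the 44 were lower and 1 higher at an unadjusted p under 0.05, together 11.4% beside 4.65% of all. The 5 µM arrays lay below all 0.5 nM arrays for 10 of the 44 and above them for 2. Together these were 27.3% of the list beside 6.98% of all probe sets. Against untreated, the 5 µM arrays lay below without overlap for 4 of the 44 and above for 3. Those were 15.9% of the list beside 12.3% of all probe sets. The 4 lower genes with an unadjusted p under 0.05 at 5 µM against untreated include ODC1 itself, described above. Also among them, RCC1, the exchange factor of RAN, was at -0.29 ± 0.10 and its partner RANBP1 at -0.21 ± 0.06, and neither passed.

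Genes known to fall with MYC also had a median of -0.02 at 5 µM. Of 31 listed 14 were tested, and limma's test passed 0, none of them under 0.05 before adjustment. The cell cycle inhibitor CDKN1B was at -0.27 ± 0.16, its relative CDKN1C at 0.12 ± 0.07, NDRG1 at -0.16 ± 0.09 and the tetraspanin CD9 at -0.10 ± 0.06. CDKN1B was at -0.12 without 5 µM replicate 1, and CDKN1C at 0.04 without untreated replicate 1. At 0.5 nM the medians of the lists of rising and falling genes were -0.0078 and -0.0039, with 0 at an unadjusted p under 0.05 in each, beside -0.02 over all probe sets.

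**Figure D3:**
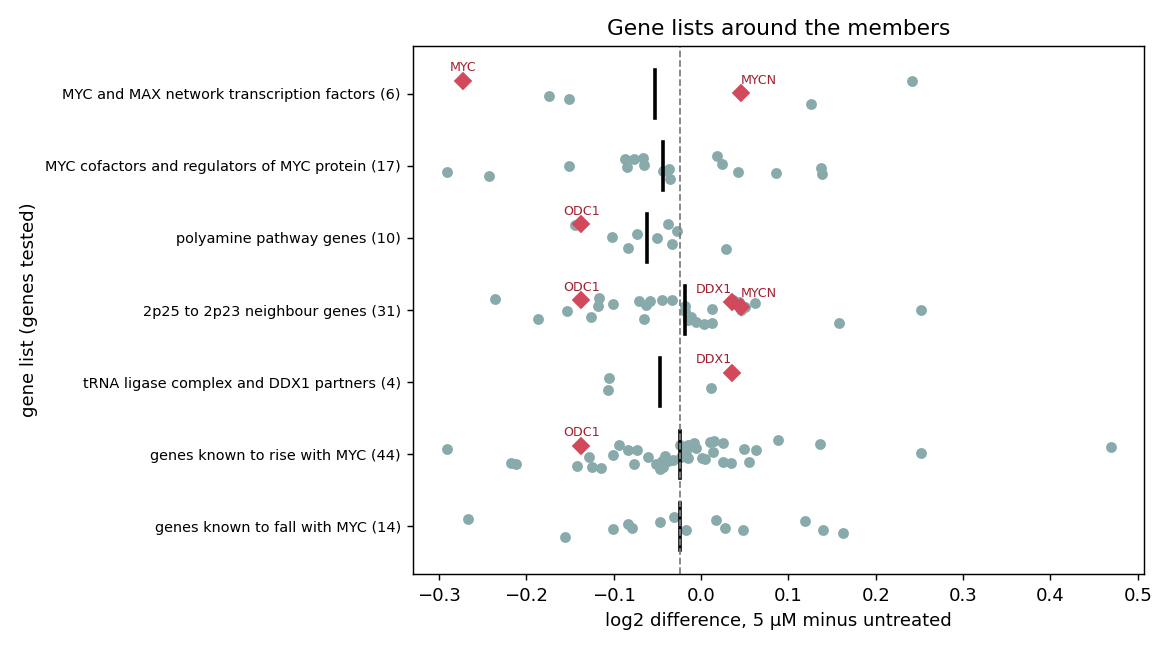
Log2 difference at 5 µM minus untreated (horizontal axis) of each tested gene, by gene list (vertical axis), with black bars for list medians, diamonds for MYCN, MYC, DDX1 and ODC1, and a dashed line for the median of all probe sets. List medians run from -0.06 to -0.02, and TFRC at 0.47 is the point farthest to the right.

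The presence of CACGTG in a promoter window was also set against the changes, a split chosen after the values were seen. Of the tested genes with a RefSeq window, 531 held CACGTG and 3684 did not. Their median differences at 5 µM were -0.02 log2 in both sets. All 5 µM arrays lay below all untreated arrays for 9.04% of genes with the E-box and 9.74% of those without. Of the 531, 4 passed limma's test as lower at 5 µM, and of the 3684, 8, a difference that was not tested. Of the 54 genes known to rise with MYC that have a window, tested or not, 24 held CACGTG (44.4%). The counts by gene to set beside this are the 531 with and 3684 without it among the tested genes. The 7.26% given earlier is a share of windows and not of genes. The difference in share was not tested.

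Along chromosome 2p, 59 genes on both sides of MYCN were listed, 35 had a probe set and 31 were tested. None passed limma's test at either dose. At 5 µM 3 had an unadjusted p under 0.05, 9.68% of the 31 beside 6.84% of all probe sets. They were ODC1, SDC1 at -0.19 ± 0.08 and POMC at -0.24 ± 0.10. POMC was dim, with a mean of 6.17 log2 untreated and 5.94 at 5 µM, the latter below the filter value of 5.95. The median of the 31 was -0.02 log2, as over all, with 19 lower and 12 higher, beside 61.9% lower among all probe sets. ID2, an inhibitor of helix-loop-helix factors described as a MYCN target, was at 0.25 ± 0.12 (adjusted p = 0.74), and at 0.16 without 5 µM replicate 1. Its arrays did not overlap, which was so in either direction for 12.3% of all probe sets. NBAS, the measured gene next to DDX1 and also found within MYCN amplicons, was chosen after its values were seen. It was at -0.12 ± 0.06 at 5 µM and -0.17 ± 0.06 at 0.5 nM (unadjusted p = 0.0116, adjusted p = 0.9999). Its arrays at both doses lay below the untreated ones without overlap, as did 9.47% of all probe sets at 5 µM. At 0.5 nM 6.98% of all were without overlap in either direction. RefSeq counts 16 protein-coding genes between ODC1 and MYCN.

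**Figure D4:**
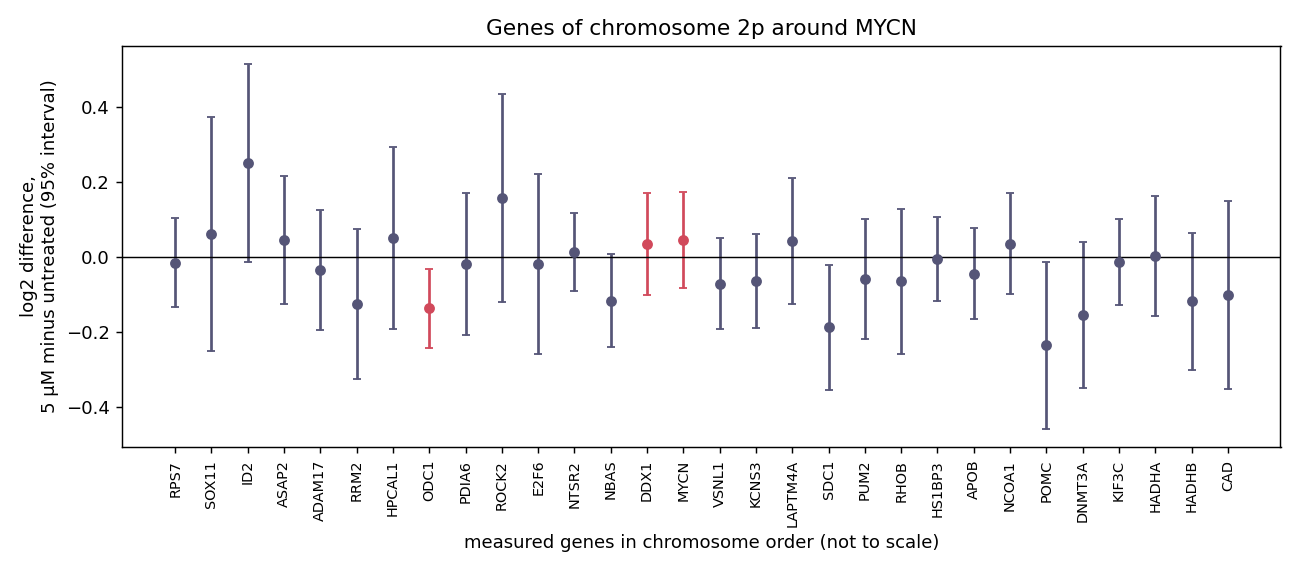
Log2 difference at 5 µM minus untreated (vertical axis) with limma's 95% intervals for the tested protein-coding genes of the chromosome 2p list, in chromosome order and not to scale (horizontal axis), with DDX1, MYCN and ODC1 in red. DDX1 and MYCN stand side by side at 0.03 and 0.05, and NBAS beside them at -0.12.

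Whether MYCN and DDX1 varied together was asked across the 9 arrays. Pearson's r was 0.13 (exact permutation p = 0.628, adjusted over 6 pairs of genes 0.787) and Spearman's rho 0.40 (exact permutation p = 0.296, adjusted 0.592). Without the 2 arrays farthest from the MYCN median, untreated replicate 2 and 0.5 nM replicate 1, r was 0.76 over 7 arrays. Without untreated replicate 2 alone it was -0.65 and without 0.5 nM replicate 1 alone 0.96, so the relation rests on those arrays. The 9 arrays span 0.18 log2 for MYCN and 0.27 for DDX1, and the spread of copy number across tumours is not sampled by 1 cell line.

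MYC and ODC1 had the highest r of the 6 pairs, 0.58 (exact permutation p = 0.103, adjusted 0.62), with rho 0.44 (exact permutation p = 0.234, adjusted 0.592). Without 5 µM replicate 3 and 0.5 nM replicate 3, the arrays farthest from the MYC median, r was 0.84 over 7 arrays, and after quantile normalization it was 0.26 over all 9. After the group means were taken out r was -0.36, so the pooled value does not hold within groups. The other 4 pairs had r of -0.16 to 0.40 with adjusted exact permutation p of 0.787. Within groups MYC and DDX1 had r = 0.80, and over all arrays 0.40, or -0.12 without 0.5 nM replicate 1.

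**Figure D5:**
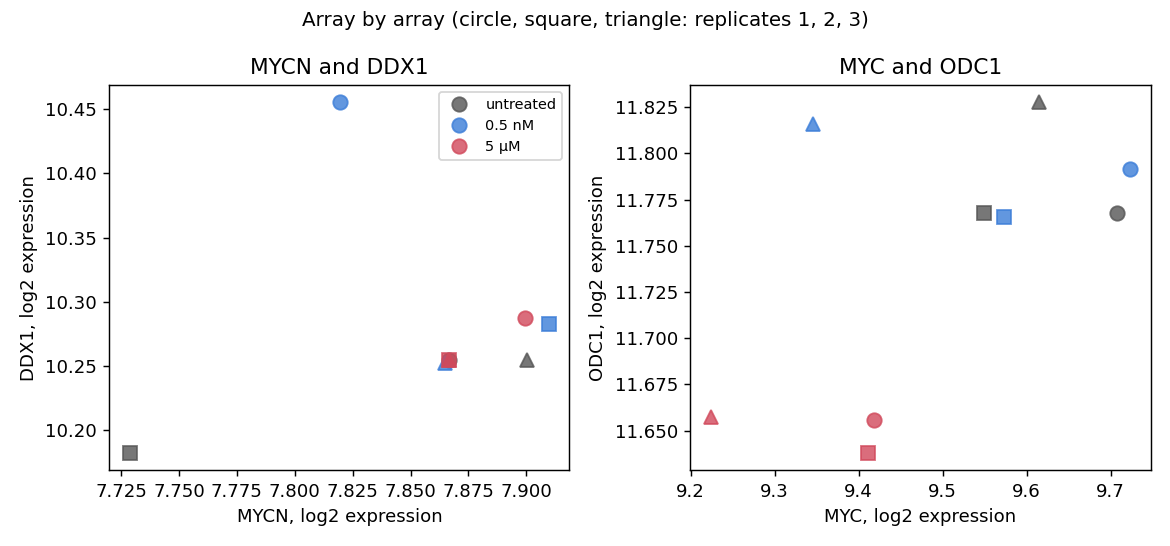
Log2 expression of DDX1 against MYCN (left) and of ODC1 against MYC (right) on each of the 9 arrays, coloured by group, with replicates 1, 2 and 3 as circles, squares and triangles. On the left, untreated replicate 1 and 5 µM replicates 2 and 3 lie on one point. On the right, the 3 arrays at 5 µM lie apart at ODC1 levels of 11.64 to 11.66.

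The overlap of points reflects identical deposited values. MYCN was 7.87 to all deposited digits on 3 arrays, DDX1 10.25 on 4 and ODC1 11.77 on 2, while the 9 values of MYC all differed. At least 2 identical arrays were found in 53.2% of tested probe sets, at least 3 in 22.6% and at least 4 in 6.47%. At 5 µM both MYCN and DDX1 had 2 identical arrays of 3, and the 3 ODC1 arrays all differed.

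The genes whose values ran most like each gene over the 9 arrays were found among 5225 others by Pearson's r, given as a description. ODC1 ran most like LSS (r = 0.97) and HMGCS1 (0.96), both enzymes of cholesterol synthesis, and the muscarinic receptor gene CHRM3 (0.96). These 3 were at -0.57, -1.14 and -0.49 log2 at 5 µM against untreated. With group means taken out r was 0.70, 0.50 and 0.64, so the likeness lies partly between groups. MYC ran most like SNRNP40 (0.95), CNN3 (0.95) and PPIF (0.94), at -0.25, -0.41 and -0.15 at 5 µM, and within groups r was 0.89, 0.92 and 0.89.

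MYCN ran most like SKIC2 (r = 0.96), DDX24 (0.93) and HAND2 (0.92), the last a transcription factor of the sympathetic lineage. DDX1 ran most like EHD3 (0.99), ITPA (0.94) and SESN1 (0.93). Within groups r was 0.96, 0.93 and 0.95 for the genes like MYCN and 0.99, 0.96 and 0.90 for those like DDX1. Each of these 6 differed by at most 0.12 log2 at 5 µM.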

How the data were processed

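RNA of LAN-5 cells was hybridised to 9 arrays, 3 per group, with groups and replicate numbers from the sample titles. The authors deposited log2 values per probe set, made with GCRMA (no version given) per the submitters' processing notes. The log2 scale was read from the values, 4.37 to 14.5 with array medians of 6.60 to 6.64. GCRMA corrects background, normalises between arrays and summarises probes, and may compress differences of dim probe sets. Scanner intensities were not used here, and the number of arrays limits the precision.

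After removal of 47 control probe sets, the dimmest 33.3% by mean over all arrays (at or below 5.95) were left out. Symbols came from the platform annotation, updated by Entrez identifier through RefSeq (7838 of 7840 matched). Limma 3.58.1 in R 4.3.3 was fitted to all 9 arrays with 1 factor of 3 groups, and Benjamini-Hochberg adjusted p-values cover all 5830 probe sets. For a list gene with several probe sets, that of the highest mean was used. Named are the 4 measured genes, the 4 members of each list with the smallest p at 5 µM, any that passed, and the 3 genes most like each. MYCNOS and NBAS were added after their values were seen. The fit was tested on simulated data with planted changes larger than any of the 4 measured genes showed, so that test does not cover changes of their size. The symbols and lists were chosen with earlier results of these data known, although the symbol rule itself uses no value. Alternatives were other filters, scalings, priors, blocks and left-out arrays.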

Additional observations from a re-analysis of the deposited data

Results flagged for a closer look

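TFRC, in the list of genes known to rise with MYC, was the gene of these lists whose change against untreated differed between the doses. Its effect at 5 µM minus that at 0.5 nM was 0.49 log2 (limma's adjusted p = 0.0483, higher on 3 of 3 arrays), and under the alternatives the adjusted p ran from 0.0194 to 0.395. Groups of 3 arrays are too small for a test of single outlying arrays.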

How the results depend on the processing

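None of MYCN, MYC, DDX1 and ODC1 passed limma's threshold in any comparison under any of 18 alternatives. At 5 µM against untreated MYC ran from -0.31 to -0.21 log2 and ODC1 from -0.15 to -0.09, with an unadjusted p under 0.05 in 16 and 15 of the 18. Differences near 0 changed sign when 1 array was left out: MYCN ran from -0.0059 to 0.080 at 5 µM, from -0.019 to 0.067 at 0.5 nM and from -0.0096 to 0.035 between doses, ODC1 from -0.0092 to 0.023 at 0.5 nM and MYC from -0.16 to 0.024 at 0.5 nM. Without replicate 3 of every group, an alternative chosen after seeing the data, MYC at 0.5 nM was 0.019. Left-out arrays moved r from -0.65 to 0.96 for MYCN with DDX1, from -0.12 to 0.50 for MYC with DDX1 and from -0.25 to 0.22 for DDX1 with ODC1. TFRC at 0.5 nM was 0.0077 after median centring, and without 1 array ran from -0.086 to 0.034, and PLK1 at 0.5 nM from -0.041 to 0.033. The cause was not tested.

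Over all probe sets, the count at 5 µM against untreated was 17, and 4 to 17 without 1 array (under 10 without any untreated or 5 µM array), 7 with only the 2 groups, 1 unmoderated and 3 without replicate 3 of every group. Between doses it was 15, and 3 to 14 without 1 array (8 or fewer without any treated array other than 5 µM replicate 3), 4 with only the 2 groups, 1 unmoderated and 4 without replicate 3 of every group. Among genes known to rise with MYC, the count at 5 µM was 1, TFRC, under the stricter filter, quantile normalization, median centring or an intensity trend, and 0 to 1 without 1 array. Between doses it was 0 without the filter, after median centring, with the replicate block, with only the 2 groups, unmoderated or without replicate 3 of every group, and 0 to 1 without 1 array.

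Same-numbered arrays did not all deviate together: 4 of 9 such pairs correlated above 0.1, among them all 3 pairs of replicate 3 (0.298, 0.298 and 0.330), and 4 of 9 arrays ran most like their own number. With the replicate block MYC at 5 µM kept -0.27 (adjusted p = 0.306) and ODC1 -0.14 (adjusted p = 0.582). Without replicate 3 of every group NDRG1 at 5 µM was -0.07, MLXIPL -0.10, BIN1 -0.10 and OAZ2 -0.04. Quantile normalization and median centring moved the median difference at 5 µM from -0.02 to 0.0022 and -0.00060.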
